A study of Mus musculus with 31 samples.

Results

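Markers of kidney fibroblasts and myofibroblasts, with the platelet-derived growth factor (PDGF) signals that act on these cells, were followed as 9 genes through 31 mouse kidneys: the receptors Pdgfra and Pdgfrb, the ligands Pdgfa and Pdgfb, the contractile genes Acta2 and Tagln, the intermediate filament genes Vim and Des, and the surface marker Thy1. They were chosen by symbol, and all 9 were present among the 23509 genes of the count files. The kidneys came from 12 Pcy/CD1 mice injected under the skin with PBS, 14 Pcy/CD1 mice injected with RGLS4326 at 25 mg/kg per dose, and 5 male CD1 mice of the same age, wild type and left untreated. Injections began at 5 weeks of age, and kidneys were taken at 30 weeks of age, after the last dose, and frozen. RGLS4326 was given monthly, while the PBS schedule reads as monthly in the treatment protocol and as weekly in the sample labels. Both Pcy groups carry the recessive pcy allele, which causes slowly progressive cystic kidney disease, on a CD1 background. The wild-type mice had no injections, so that genotype and injection cannot be told apart in any comparison with them. RGLS4326 is a short, chemically modified oligonucleotide that inhibits the microRNA miR-17.

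Fibroblasts and pericytes lie between the tubules and along the small vessels of the kidney, and they carry PDGF receptors on their surface. PDGF-A acts through the alpha receptor and PDGF-B through both receptors, and PDGF-B from endothelium is the classical signal that recruits pericytes and mesangial cells. In a damaged kidney these cells can become myofibroblasts, which gain the stress fibre proteins of smooth muscle and lay down collagen. None of the 9 genes is private to these cells: Acta2, Tagln and Des are also made by the smooth muscle of vessels, Vim by endothelium, podocytes, leukocytes and injured tubules, and Thy1 by T cells.

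In whole kidney RNA the 9 genes separated cystic from wild-type kidneys far more than treated from untreated ones. In PBS-treated Pcy kidneys 8 of 9 were higher than in wild type, from 1.77-fold for Pdgfa to 10.4-fold for Thy1 (edgeR quasi-likelihood test, adjusted p under 0.05 over 15185 genes). Over all genes tested, 37.7% were called higher and 36.6% lower in that comparison. With RGLS4326, 0 of 9 passed against PBS, where 9.15% of all genes were called higher and 6.66% lower. The fitted log2 fold change lay below 0 for 9 of 9, beside 51.1% of all genes, with Pdgfra at -0.002 (SE 0.17). Most of the markers varied together across mice, so that these signs are not independent of each other. Against wild type, 8 of 9 were still higher in the treated kidneys (32.5% of all genes called higher and 32.4% lower). The median log2 fold change of the 9 genes was 1.28 for PBS against wild type, -0.25 for RGLS4326 against PBS and 1.05 for RGLS4326 against wild type, beside medians over all genes tested of 0.01, -0.00 and 0.00. The 3 comparisons share their groups of mice, so that their values are not independent of each other. A lower or higher level in whole kidney RNA cannot tell a change in the number of marker-bearing cells from a change in RNA per cell.

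**Figure D1:**
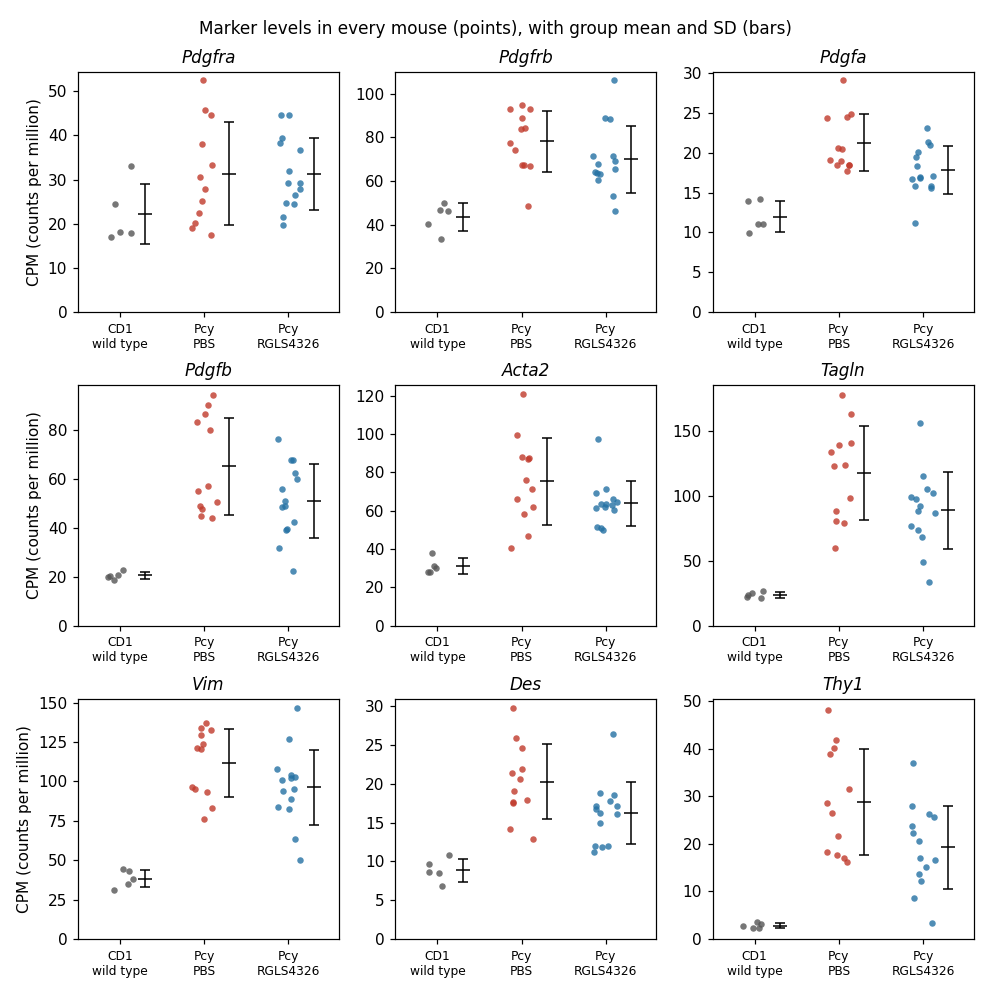
Level of each marker in CPM (counts scaled to the library total, y axis from 0) in every mouse (points) of the 3 groups (x axis), with group mean and SD (bars). In 7 of the 9 panels every PBS-treated mouse lies above every wild-type mouse, while the PBS and RGLS4326 points overlap in all 9.

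Libraries held 14892524 to 27459962 counts assigned to genes, and Thy1, the lowest marker in wild type, rested there on 37 to 59 counts. CPM were computed with library sizes scaled by TMM. One treated mouse, RGLS4326 replicate 9, stood apart: Lcn2, a marker of tubular injury, was at 2.76 CPM there, inside the wild-type range of 0.944 to 11.2, while the medians of the Pcy groups were 444 (PBS) and 354 (RGLS4326). That mouse lay within the wild-type range for 5 of the 9 markers (Pdgfra, Pdgfrb, Pdgfa, Pdgfb and Thy1). Without it the log2 fold changes of the markers against PBS ran from -0.49 (Thy1) to 0.02 (Pdgfra), with Tagln at -0.33 and Pdgfb at -0.29. Values without it are given beside some other marker results, and the list counts printed are repeated without it where they differ. Calls over all genes for RGLS4326 against PBS were 2402 of 15185 with all mice and 1234 of 15166 without that mouse. The numbers in the deposited library names run through 3 series, here called index series. Within-series values are printed for some markers, and comparisons with wild type within a series mostly as counts of markers passing.

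Of the receptors, Pdgfrb rose and Pdgfra did not pass against wild type. Pdgfra (chr5:75152292-75198215, GRCm38, plus strand) encodes the alpha receptor, the usual label of interstitial fibroblasts. Its level in the 5 wild-type mice was 18.1, 33.1, 17.1, 17.9 and 24.4 CPM. PBS-treated mice ranged from 17.4 to 52.5 CPM around a median of 29.2, and RGLS4326-treated mice from 19.7 to 44.7 around 29.3. The 3 groups overlapped, and 5 of 12 PBS-treated and 5 of 14 RGLS4326-treated mice exceeded the highest wild-type mouse. The log2 fold change was 0.50 (SE 0.24, adjusted p = 0.0543) for PBS against wild type and 0.50 (adjusted p = 0.0578) for RGLS4326 against wild type. Wild-type replicate 2 weighed on both: without it they were 0.70 (adjusted p = 0.0151) and 0.70 (adjusted p = 0.0174). The PBS comparison also passed without PBS replicate 3, 5, 9, 10 or 12 (log2 fold changes 0.53 to 0.56), and the RGLS4326 comparison without PBS replicate 9 or 11 or RGLS4326 replicate 5, 9 or 11 (0.50 to 0.54). For RGLS4326 against PBS the value was -0.00 (fold 0.999, 95% interval 0.795 to 1.25, adjusted p = 0.994).

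Pdgfrb encodes the beta receptor, carried by pericytes, mesangial cells, vascular smooth muscle and fibroblasts. Wild-type levels were 40.5, 33.6, 49.8, 46.7 and 46.3 CPM. The median was 80.6 CPM in PBS-treated mice (48.8 to 94.7) and 66.6 in RGLS4326-treated mice (46.3 to 106). All but 1 mouse of each Pcy group lay above the highest wild-type mouse, the exceptions being PBS replicate 12 and RGLS4326 replicate 9. The rise over wild type was 1.80-fold with PBS (log2 0.85, adjusted p = 1.08e-05) and 1.62-fold with RGLS4326 (adjusted p = 0.000196). Within index series 2 the RGLS4326 value was 0.29 on the log2 scale and did not pass (adjusted p = 0.225). Few of all genes tested were called in that fit. The difference between the treatments, -0.16 on the log2 scale, did not pass (adjusted p = 0.269). Its sign differed between the index series, at -0.06, -0.45 and 0.05. The log2 ratio of Pdgfra to Pdgfrb did not pass in any comparison (-0.38 for PBS against wild type, exact permutation test, adjusted p = 0.21).

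Of the 2 ligands, Pdgfb rose further than Pdgfa. Pdgfa (chr5:138976014-138997370, minus strand) was at 11.03, 14.1, 11, 9.87 and 13.97 CPM in wild type, from 17.8 to 29.2 (median 19.8) with PBS and from 11.2 to 23.1 (median 17.03) with RGLS4326. Every PBS-treated mouse exceeded every wild-type mouse, and 8 of 14 treated mice lay below the lowest PBS-treated mouse. Pdgfa was 1.77-fold higher with PBS than in wild type (adjusted p = 2.36e-06) and 1.49-fold higher with RGLS4326 (adjusted p = 0.000355). Against PBS its log2 fold change was -0.25 (SE 0.09, adjusted p = 0.053), the smallest adjusted p of the 9 in that comparison. An antisense gene, 6330403L08Rik, shares 26.1% of its exon bases.

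Pdgfb (chr15:79995874-80014977, minus strand) was tightly grouped in wild type, at 20.1, 18.8, 20.7, 20.3 and 22.8 CPM. PBS-treated mice spread from 43.9 to 94.6 CPM around 56.0, and RGLS4326-treated mice from 22.3 to 76.5 around 50.1. The 7 lowest PBS-treated mice lay at 57.1 CPM or less and the 5 highest at 79.9 CPM or more. The rise over wild type was 3.18-fold with PBS (95% interval 2.31 to 4.39, adjusted p = 3.65e-07) and 2.49-fold with RGLS4326 (adjusted p = 1.76e-05). The log2 fold change against PBS was -0.36 (adjusted p = 0.0977). The log2 ratio of Pdgfb to Pdgfa within a mouse was 0.74 ± 0.22 in wild type (SD, n = 5), 1.53 ± 0.30 with PBS (n = 12) and 1.42 ± 0.26 with RGLS4326 (n = 14). It was higher than in wild type by 0.79 with PBS, without overlap between the groups (two-sided exact permutation test, raw p = 0.000323, adjusted p = 0.00242 over 15 ratio tests), and by 0.68 with RGLS4326 (14 of 14 mice above the wild-type median, exact permutation test, adjusted p = 0.00258).

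The contractile genes rose unequally. Acta2 (chr19:34241090-34255590, minus strand) encodes smooth muscle alpha-actin, the standard label of myofibroblasts, and was at 30.3, 30.8, 27.7, 27.9 and 37.9 CPM in wild type. It ranged from 40.3 to 121 CPM (median 73.7) with PBS and from 49.8 to 97.7 (median 63.3) with RGLS4326. Neither Pcy group overlapped with wild type. The rise was 2.44-fold with PBS (adjusted p = 4.42e-07) and 2.07-fold with RGLS4326 (adjusted p = 1.39e-05). Against PBS, 13 of 14 treated mice lay below the PBS median, with a log2 fold change of -0.24 (adjusted p = 0.165). Its coding sequence is nearly identical to that of other actins, and counting of uniquely mapped reads leaves part of such genes unmeasured. The log2 ratio of Acta2 to Pdgfrb was 0.35 higher with RGLS4326 than in wild type (exact permutation test, adjusted p = 0.0283, a difference of 0.26 without wild-type replicate 3, with an unadjusted exact p of 0.0503) and 0.38 higher with PBS (adjusted p = 0.0679, exact permutation test, not past the threshold).

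Tagln (chr9:45929619-45936058, minus strand) encodes transgelin, an actin-binding protein of smooth muscle and stress fibres. Wild-type mice held 21.3, 21.9, 25.1, 23.8 and 26.9 CPM. With PBS the range was 59.5 to 177 CPM (median 124), and with RGLS4326 33.5 to 156 (median 90.3), again with no overlap with wild type. The rise was 4.93-fold with PBS (adjusted p = 2.42e-08) and 3.74-fold with RGLS4326 (adjusted p = 8.45e-07), and 13 of 14 treated mice lay below the PBS median (log2 fold change -0.40, adjusted p = 0.0893). Genes annotated on the opposite strand share 62.4% (Gm48529) and 5.4% (Pcsk7) of its exon bases, and the strand setting of the counting was not given in the sources used here. The log2 ratio of Acta2 to Tagln was 0.36 ± 0.17 in wild type (n = 5), -0.63 ± 0.18 with PBS (n = 12) and -0.41 ± 0.40 with RGLS4326 (n = 14). It was lower than in wild type with PBS (difference -0.99, no overlap, exact permutation test, adjusted p = 0.00242) and with RGLS4326 (difference -0.77, 13 of 14 mice below the wild-type median, exact permutation test, adjusted p = 0.00515). The difference between the treatments in this ratio, 0.22, did not pass (permutation test, adjusted p = 0.139).

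Both filament genes rose, Vim more than Des. Vim (chr2:13573927-13582826, plus strand) encodes vimentin, the intermediate filament of mesenchymal cells, and was at 37.8, 31.1, 43.0, 44.3 and 34.9 CPM in wild type. The median was 121 CPM with PBS (76.1 to 137) and 97.9 with RGLS4326 (49.9 to 147). Every Pcy mouse exceeded every wild-type mouse, with a rise of 2.93-fold with PBS (adjusted p = 2.29e-08) and 2.52-fold with RGLS4326 (adjusted p = 5.21e-07). Against PBS the log2 fold change was -0.22 (adjusted p = 0.185).

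Des (chr1:75360329-75368579, plus strand) encodes desmin, the filament of muscle, pericytes and mesangial cells. Its wild-type levels were 9.61, 6.83, 8.46, 8.60 and 10.8 CPM. It ranged from 12.9 to 29.8 CPM (median 19.9) with PBS and from 11.3 to 26.5 (median 16.5) with RGLS4326, without overlap with wild type in either. The rise was 2.29-fold with PBS (log2 1.20, adjusted p = 1.1e-06) and 1.84-fold with RGLS4326 (adjusted p = 0.000107). Against PBS, 13 of 14 treated mice lay below the PBS median (log2 fold change -0.32, SE 0.12, adjusted p = 0.0655). The log2 ratio of Vim to Des was 0.42 higher with PBS and 0.49 higher with RGLS4326 than in wild type (exact permutation tests, adjusted p = 0.00515 for each, 12 of 12 and 13 of 14 mice above the wild-type median). None of the 5 ratios tested differed between the treatments at an adjusted p under 0.05, the lowest being 0.139.

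Thy1 (chr9:44043384-44048579, plus strand), a surface glycoprotein of fibroblasts and of T cells, had the widest difference of the 9. Wild-type mice held 3.19, 2.26, 3.49, 2.73 and 2.23 CPM. PBS-treated mice ranged from 16.2 to 48.2 CPM (median 27.6), none near wild type. RGLS4326-treated mice ranged from 3.27 to 37.0 CPM (median 18.9), the lowest being replicate 9, and 5 of 14 lay below the lowest PBS-treated mouse. Thy1 was 10.4-fold higher with PBS than in wild type (95% interval 5.92 to 18.2, adjusted p = 4.64e-08) and 6.96-fold higher with RGLS4326 (adjusted p = 1.57e-06). Without replicate 9 the latter was 7.42-fold. The log2 fold change between the treatments was -0.58 (SE 0.23, 95% interval of the fold 0.489 to 0.918, adjusted p = 0.0752), and 12 of 14 treated mice lay below the PBS median. By index series it was -0.11, -1.16 and -0.55, and none of these passed alone. Over all genes, 0 of 15222, 0 of 15188 and 0 of 15457 were called within these series.

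In PBS against wild type, every mouse of the first group lay above the highest wild-type mouse for 7 of the 9 markers, beside 20.3% of all genes tested. In RGLS4326 against wild type the count was 4 of 9 (Acta2, Tagln, Vim and Des), beside 5.04% of all genes. Replicate 9 alone overlapped with wild type for Pdgfrb, Pdgfa, Pdgfb and Thy1, for each of which the other 13 treated mice lay above. Within index series 1 and 2, 8 of 9 were higher with PBS than in wild type. Over all genes, 7905 of 15222 and 6918 of 15188 were called there in either direction. With RGLS4326, 8 of 9 were higher than in wild type in index series 1. In series 2, which holds replicate 9 and 2 wild-type mice, 1 of 9 passed (Acta2). For RGLS4326 against wild type, 7195 of 15222 genes were called in series 1. Calls over all genes in series 2 were a small fraction of these, so that the fall was not particular to the markers. Only 1 wild-type mouse was in series 3, which was too few for that comparison. The wild-type libraries of series 2, replicates 3 and 4, had closely alike counts, with a chi-square per gene of 2.84 between them. Other pairs of wild-type libraries gave 17.1 to 24.5. Whether replicates 3 and 4 are independent of each other was not tested, and both enter the comparisons with wild type over all mice.

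The count of 0 for RGLS4326 against PBS lay close to the threshold for several genes. The adjusted p of the edgeR test was 0.053 to 0.0977 for Pdgfa, Pdgfb, Tagln, Des and Thy1. A DESeq2 Wald test passed 1 of 9 (Pdgfa, adjusted p = 0.0415), beside 3203 of 15182 genes. Single mice decided the calls: without RGLS4326 replicate 2, the mouse with the highest level of 8 of the 9 markers in its group, 5 of 9 passed (Pdgfa, Pdgfb, Tagln, Des and Thy1, log2 fold changes -0.29 to -0.68). Without PBS replicate 12, the lowest mouse of its group for 6 of the 9, 4 passed (Pdgfa, Tagln, Des and Thy1). Without PBS replicate 4 there were 2 (Pdgfa and Thy1), without PBS replicate 7 there were 2 (Pdgfa and Des), and without PBS replicate 6 or 8 or RGLS4326 replicate 4, 5, 11 or 12 there was 1 (Pdgfa). Without RGLS4326 replicate 9 none passed, and Thy1 was at -0.49 (adjusted p = 0.0906). The number of genes called among all tested also moved, from 2402 with all mice to 618 without PBS replicate 10 and 3999 without RGLS4326 replicate 2. It was 3273 without PBS replicate 12, 3864 without PBS replicate 4 and 2959 without PBS replicate 7. Without PBS replicate 6 or 8, or RGLS4326 replicate 4, 5, 11 or 12, it was 2248 to 2994. Without RGLS4326 replicate 9 it was 1234.

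**Figure D2:**
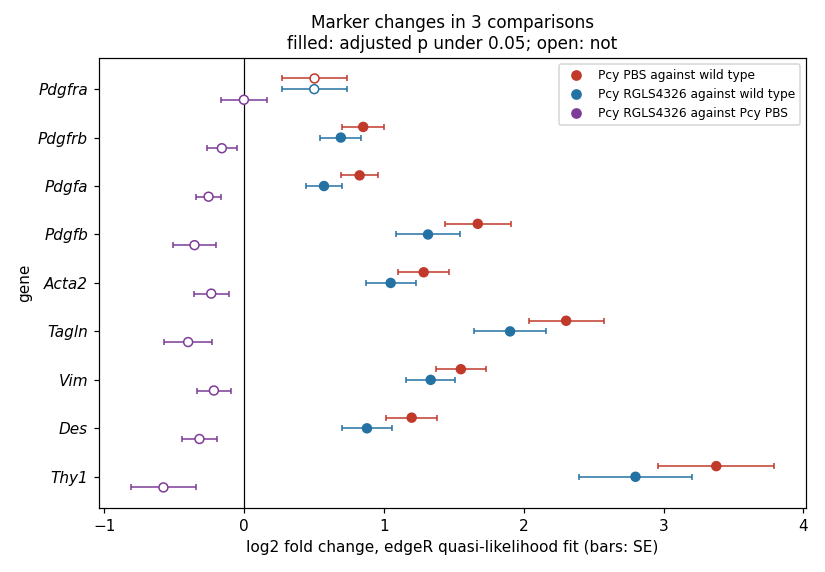
Log2 fold change (x axis, edgeR fit) of each marker (y axis) with its SE (bars) in the 3 comparisons, filled where the adjusted p was under 0.05. The 8 markers other than Pdgfra are filled against wild type in both Pcy groups, and all points of RGLS4326 against PBS are open and between -0.58 and -0.00.

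Levels were also set on a per-length scale, CPM per kilobase of annotated exon, to order the genes within a group. In wild type, Acta2 (14.1 ± 1.89 CPM per kilobase, SD, n = 5) and Tagln (11.97 ± 1.16) stood first, then Vim (8.06 ± 1.16) and Pdgfrb (7.91 ± 1.17), then Pdgfb (4.93 ± 0.34) and Pdgfa (3.85 ± 0.62), then Des (2.36 ± 0.39) and Pdgfra (2.21 ± 0.68), and last Thy1 (0.927 ± 0.187). Neighbours overlapped in range within each of these pairs. Between pairs, the ranges of Pdgfa and Pdgfra overlapped, though Pdgfa was above Des in 5 of 5 mice. With PBS the order became Tagln (59.0 ± 18.3 CPM per kilobase, n = 12), Acta2 (34.3 ± 10.4) and Vim (23.6 ± 4.55), each above the next in 12 of 12 mice though the ranges overlapped. Pdgfb (15.7 ± 4.76) and Pdgfrb (14.3 ± 2.55) followed, with Pdgfb the higher in 6 of 12 mice. Thy1 moved from last to sixth (9.64 ± 3.73), and Pdgfra was last (3.13 ± 1.16). With RGLS4326 the order was the same but for Pdgfrb (12.8 ± 2.81, n = 14) and Pdgfb (12.3 ± 3.67), which changed places with overlapping ranges, and Tagln exceeded Acta2 in 13 of 14 mice.

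From mouse to mouse, the 7 markers other than the receptors varied together in both Pcy groups, though Acta2 did so loosely with RGLS4326. Pdgfrb varied with them mainly in the RGLS4326 group, and Pdgfra did so in neither. Relations were computed within each Pcy group on log2(CPM + 1), 96 in all, with permutation p adjusted over the 96. All values of a mouse share its library and scaling factor. Among the 21 pairs without a receptor, the median Spearman rho was 0.80 with PBS (0.52 to 0.94) and 0.81 with RGLS4326 (0.32 to 0.96). On rho, 18 of 21 passed with PBS and 15 of 21 with RGLS4326. The pairs that did not pass with RGLS4326 were those of Acta2 (rho 0.32 to 0.58, adjusted permutation p = 0.0548 to 0.328). The closest pair on both scales with RGLS4326 was Tagln with Thy1 (r = 0.98, rho = 0.96, permutation p = 1e-05 for each, the smallest the resamples can give, adjusted p = 0.00012 and 0.00048). It held without replicates 9 and 6, the 2 mice farthest from the median of Tagln (r = 0.94). With PBS the same pair gave r = 0.92 and rho = 0.92 (adjusted permutation p = 0.000206 and 0.0008).

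Pdgfra correlated with Pdgfrb (r = 0.68 and rho = 0.76 with PBS, adjusted permutation p = 0.0213 and 0.0155, and r = 0.67 and rho = 0.69 with RGLS4326, adjusted p = 0.015 and 0.0193). Leaving out the 2 mice farthest from the median gave r = 0.61 and r = 0.56. Pdgfrb gave r of 0.69 to 0.86 with the 7 other markers in the RGLS4326 group (7 of 7 at an adjusted permutation p under 0.05, rho 0.51 to 0.77, with 4 of 7 under 0.05), and 0.53 to 0.81 without replicate 9. In the PBS group the values were r of -0.01 to 0.72 (rho -0.03 to 0.64), and Acta2 (r = 0.72, adjusted permutation p = 0.0152, rho = 0.64, adjusted p = 0.0543) and Des (r = 0.64, adjusted permutation p = 0.0379, rho = 0.49, adjusted p = 0.157) passed on r alone. The difference between the groups was not tested. With the 7 other markers Pdgfra gave rho of -0.59 to 0.42 over both groups. The lowest was Pdgfra with Pdgfb in the PBS group (r = -0.63, adjusted permutation p = 0.0493, rho = -0.59, adjusted p = 0.0687), where the RGLS4326 group gave r = 0.03 (adjusted permutation p = 0.963) and rho = -0.11. The difference between the groups in this relation was not tested. Acta2 tracked Myh11, the myosin heavy chain of mature smooth muscle, in the PBS group (r = 0.74, adjusted permutation p = 0.0131, rho = 0.70, adjusted p = 0.0266), less so without replicates 3 and 12 (r = 0.49). In the RGLS4326 group the values were r = -0.05 and rho = 0.07 (adjusted permutation p = 0.895 and 0.876).

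**Figure D3:**
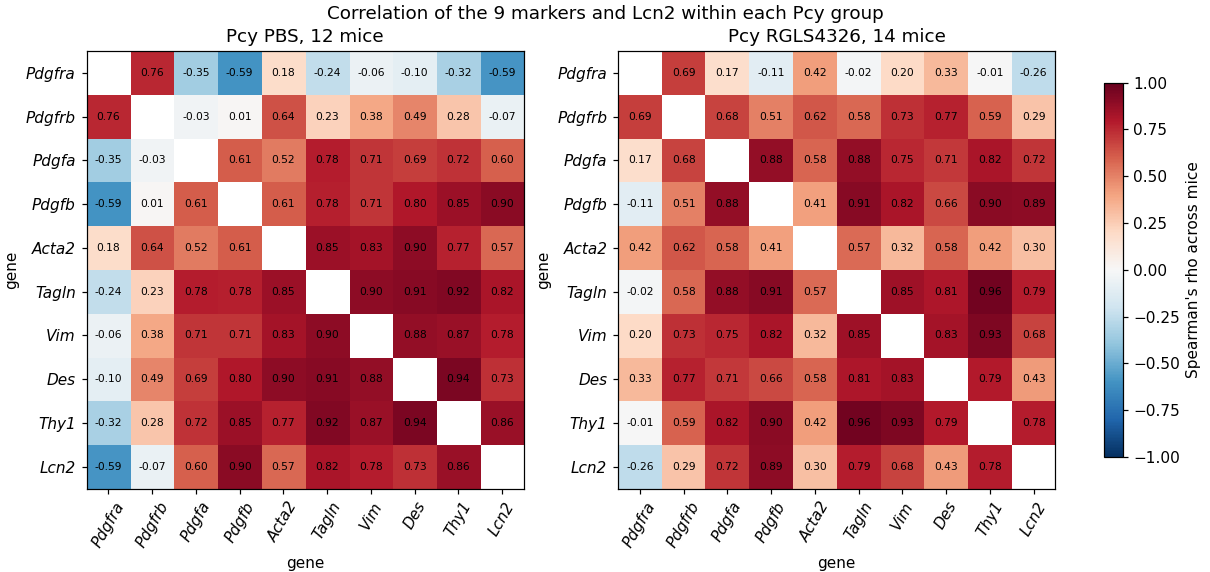
Spearman's rho (colour scale from -1 to 1, and printed) between each pair of the 9 markers and Lcn2 within the 12 PBS-treated mice (left) and the 14 RGLS4326-treated mice (right). The markers from Pdgfa to Thy1 form a block of positive values in both groups, from 0.32 to 0.96, and the Pdgfra row is low or negative except for Pdgfrb.

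Lcn2 rose with several markers. Pdgfb followed it most closely in the PBS group (r = 0.90 and rho = 0.90, adjusted permutation p = 0.0003 and 0.00122), and gave r = 0.87 and rho = 0.89 with RGLS4326 (adjusted permutation p = 0.000206 and 0.00096), or r = 0.87 without replicate 9. Thy1 gave r = 0.87 and rho = 0.86 with PBS (adjusted permutation p = 0.00157 and 0.00298) and r = 0.90 and rho = 0.78 with RGLS4326 (adjusted permutation p = 0.000366 and 0.00505), or r = 0.78 without replicate 9. Tagln gave r = 0.72 with PBS and r = 0.85 with RGLS4326 (adjusted permutation p = 0.0176 and 0.000459, rho = 0.82 and 0.79), and r = 0.73 without replicate 9. Pdgfra ran the other way in the PBS group (r = -0.66, adjusted permutation p = 0.033, rho = -0.59, adjusted p = 0.0723), with r = 0.08 in the RGLS4326 group, or r = -0.35 without replicate 9, neither past the threshold in the full group (adjusted permutation p = 0.873). Without the 2 mice farthest from the median of Lcn2 (replicates 10 and 5 with PBS, 9 and 13 with RGLS4326) r was 0.88 and 0.89 for Pdgfb, 0.81 and 0.81 for Thy1, 0.71 and 0.75 for Tagln, and -0.56 and -0.44 for Pdgfra. On deviations from index series means, r was 0.96 and 0.86 for Pdgfb, 0.94 and 0.93 for Thy1, and -0.61 and -0.05 for Pdgfra. Lcn2 itself was at 583 ± 336 CPM with PBS (SD, n = 12) and 333 ± 193 with RGLS4326 (n = 14), a log2 fold change of -0.81 (adjusted p = 0.148).

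**Figure D4:**
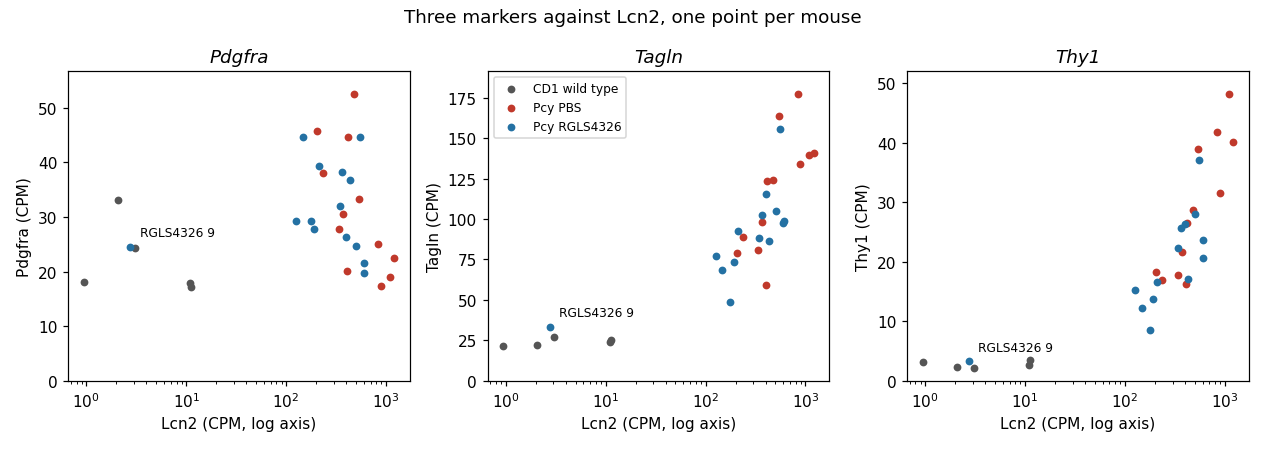
Pdgfra, Tagln and Thy1 in CPM (y axes from 0) against Lcn2 in CPM (x axis, log scale), with 1 point per mouse coloured by group. Tagln and Thy1 rise with Lcn2 among the Pcy mice, Pdgfra does not, and RGLS4326 replicate 9 lies beside the wild-type mice at 2.76 CPM of Lcn2.

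The genes around the markers were taken from written lists. Beside the list counts, 37.7% of all genes were called higher and 36.6% lower for PBS against wild type. For RGLS4326 against PBS these shares were 9.15% and 6.66%. Of 18 activated fibroblast genes, all tested, 17 were higher in PBS-treated kidneys than in wild type (median log2 fold change 2.38, beside 0.01 over all genes). Col3a1, a fibrillar collagen, rose from 29.4 to 272 CPM, and Loxl2, a collagen cross-linking enzyme, from 5.60 to 27.5 CPM. The 1 that fell was Sfrp2, a secreted Wnt modulator, from 4.66 to 3.17 CPM, which is named after its value was seen. With RGLS4326, 1 of 18 was lower than with PBS: Cthrc1, a secreted glycoprotein of matrix-forming fibroblasts, at 1.53 against 2.44 CPM (log2 fold change -0.66, adjusted p = 0.0467). Without replicate 9 it did not pass and the count was 0. Calls over all genes in that comparison fell from 2402 to 1234 without that mouse. The list's median against PBS was -0.26, close to the -0.25 of the 9 markers.

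Of 19 resident fibroblast genes, 12 were higher and 1 lower in PBS-treated kidneys than in wild type (median 1.06). The matrix genes Dpt (1.66 to 11.2 CPM) and Mfap4 (1.29 to 12.9 CPM) rose, and Mfap5, a microfibril component, rose from 0.251 to 7.52 CPM. Scara5, a ferritin receptor of fibroblasts, fell from 2.25 to 1.58 CPM, and is named after its value was seen. With RGLS4326, 1 of 19 differed from PBS: Nt5e, the ecto-nucleotidase CD73 of interstitial fibroblasts and proximal tubule, was higher at 142 against 116 CPM (log2 fold change 0.29, adjusted p = 0.0407). The count was also 1 without replicate 9.

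The contractile list split. Of 18 genes tested, 13 were higher with PBS than in wild type, among them the filament cross-linker Flna (106 to 316 CPM), the tropomyosin Tpm1 (94.7 to 261 CPM) and the LIM protein Csrp1 (49.1 to 131 CPM). The 4 that fell, named after their values were seen, were Myh11 (39.8 to 22.6 CPM, log2 fold change -0.82, adjusted p = 0.00590), Mylk, the myosin light chain kinase (182 to 122 CPM), Lmod1, a smooth muscle leiomodin (3.94 to 2.14 CPM), and Synpo2, an actin-bundling protein (2.26 to 1.37 CPM). Other smooth muscle genes of the list were among the 13 that rose, also named after their values were seen. These were Cnn1 (1.83 to 3.45 CPM), Actg2 (0.549 to 1.685 CPM) and Myl9 (30.2 to 60.5 CPM). Acta2 and Tagln thus rose in kidneys where Myh11 fell, while the smooth muscle genes did not fall as a set. With RGLS4326, 4 of 18 were lower than with PBS (Flna, Tpm1, Csrp1 and Smtn, log2 fold changes -0.13 to -0.39) and 0 were higher. Without replicate 9 the count was 0, in a fit where calls over all genes fell from 2402 to 1234.

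Of 12 pericyte and mesangial genes tested, 5 were higher and 2 lower with PBS than in wild type, with a median of 0.11. The share of higher genes was near that of all genes tested (37.7% higher and 36.6% lower). Gata3, a transcription factor of mesangial cells and collecting duct, rose from 13.8 to 35.4 CPM, and Cspg4, the pericyte proteoglycan NG2, from 30.0 to 42.8 CPM. Both were lower with RGLS4326 than with PBS, Gata3 at 28.2 CPM (adjusted p = 0.0421) and Cspg4 at 36.3 CPM (log2 fold change -0.24, adjusted p = 0.0106). The 2 that fell were Abcc9, a potassium channel subunit of mural cells (15.9 to 8.76 CPM), and Itga8, an integrin of mesangial cells (15.2 to 8.52 CPM), named after their values were seen. Without replicate 9, 1 of 12 was lower with RGLS4326 than with PBS.

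The PDGF pathway list showed no common direction. Of 21 ligands, processing enzymes, signalling partners and related genes, 6 were higher and 5 lower with PBS than in wild type, with a median of 0.07. Among all genes tested, 37.7% were called higher and 36.6% lower. Pdgfrl, a receptor-like gene, rose from 0.382 to 5.35 CPM and Furin, a protease that matures PDGF ligands, fell from 345 to 235 CPM. With RGLS4326, 3 were lower than with PBS (St14, the kinase Src and Pdgfc) and 1 was higher (Crk, an adaptor protein, 140 against 126 CPM). St14, the protease matriptase, was at 90.6 against 112 CPM (log2 fold change -0.30, adjusted p = 0.0236), and the ligand Pdgfc at 20.6 against 23.1 CPM (adjusted p = 0.0468). Src and Pdgfc are named after their values were seen. Without replicate 9 the counts were 2 lower and 0 higher with RGLS4326, and 7 higher and 5 lower with PBS against wild type.

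**Figure D5:**
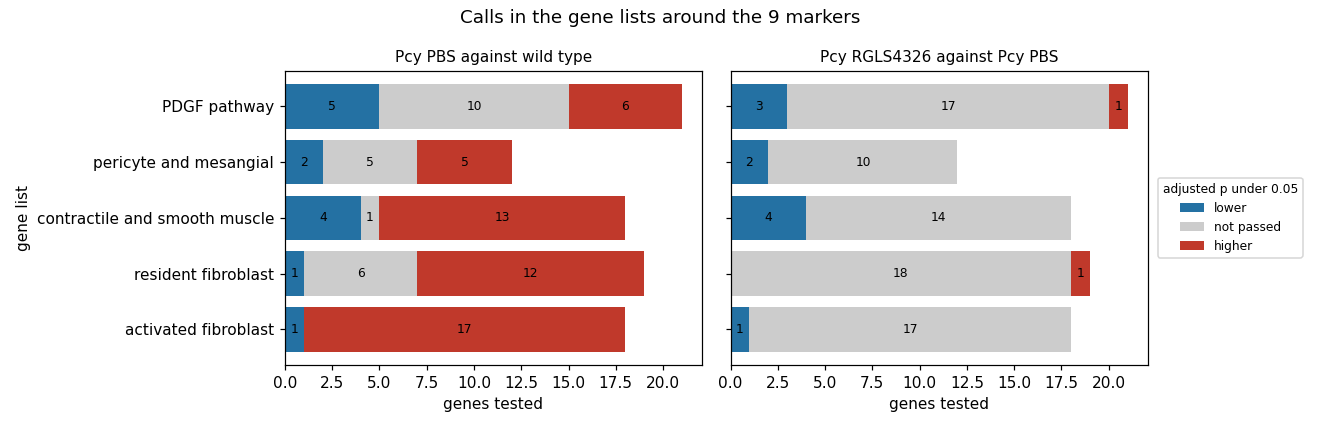
Number of genes tested (x axis) in each of 5 gene lists (y axis) that were lower, did not pass or were higher at an adjusted p under 0.05, for PBS against wild type (left) and RGLS4326 against PBS (right). The activated fibroblast list has 17 of 18 genes higher on the left and 17 of 18 not passed on the right.

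Markers of other cells moved with the same groups. All 9 T cell markers were higher with PBS than in wild type, and their summed level was 5.37 to 9.45 CPM in wild type, 37.4 to 54.2 with PBS and 8.69 to 48.5 with RGLS4326, with none of the 9 at 0 in any group. Against PBS, 1 of 9 was lower with RGLS4326 (Cd2, a T cell adhesion receptor, 1.56 against 2.23 CPM, adjusted p = 0.0344), and none without replicate 9. Calls over all genes fell from 2402 to 1234 without that mouse. Thy1 correlated with this list within the PBS group (r = 0.67 and rho = 0.66, adjusted permutation p = 0.0293 and 0.0393, or r = 0.46 without replicates 5 and 2) and within the RGLS4326 group (r = 0.89 and rho = 0.66, adjusted permutation p = 0.000889 and 0.0266, or r = 0.71 without replicate 9 and r = 0.62 without replicates 9 and 2). The part of T cells in the Thy1 difference was not tested. Neuron markers, the other main source of Thy1, summed to at most 1.42 CPM in any mouse, with Snap25, Th and Dbh at 0 in wild type.

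For Vim, the 7 leukocyte and macrophage markers were all higher with PBS than in wild type (summed 184 to 211 CPM in wild type, 381 to 621 with PBS and 187 to 693 with RGLS4326). None of the 7 passed between the treatments, and 1 was higher with RGLS4326 without replicate 9. Higher with PBS than in wild type were also 11 of 11 injured tubule markers (583 to 1144, 3314 to 8253 and 1027 to 6980 CPM). Of the injured tubule markers 1 was lower with RGLS4326 than with PBS (Krt7, a keratin of collecting duct and cyst lining, adjusted p = 0.0439), and none without replicate 9. All counts here without that mouse stand beside 1234 calls over all genes, against 2402 with it. Podocyte markers gave 3 of 6 higher (187 to 329, 212 to 379 and 210 to 330 CPM), beside 37.7% of all genes. For Pdgfb, the endothelial markers gave 4 lower (Kdr, Tek, Ehd3 and, named after its value was seen, Flt1) and 1 higher (Egfl7) of 9 with PBS against wild type, beside 36.6% of all genes lower and 37.7% higher. The summed level of the endothelial markers was 311 to 443 CPM in wild type and 228 to 416 with PBS. Pdgfb correlated negatively with them in the PBS group (r = -0.67, adjusted permutation p = 0.0342, rho = -0.62, adjusted p = 0.0586). In the RGLS4326 group the values did not pass (r = -0.56, adjusted permutation p = 0.0527, rho = -0.45, adjusted p = 0.157), with r = -0.28 without replicate 9 and r = -0.15 without replicates 9 and 11. For Acta2 and Des, skeletal muscle markers summed to at most 1.62 CPM in any mouse, with Myh4 at 0 in all. All 7 proximal tubule markers were lower with PBS than in wild type (51150 to 65890 CPM in wild type, 19530 to 40470 with PBS and 29140 to 48750 with RGLS4326), and 3 of 7 were higher with RGLS4326 than with PBS (1 of 7 without replicate 9). Urothelial markers gave 5 of 5 higher with PBS than in wild type, and fat markers 1 of 5 (Cfd), or 2 of 5 without replicate 9. The part of these cells in the marker differences was not tested.

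For each marker, the 3 other genes whose levels followed it most closely within both Pcy groups were named by mean Spearman rho over 12 and 14 mice, among 13784 genes, as a description. Pdgfra was closest to Frem1 (0.94), Tril (0.93) and Ddr2 (0.92), and Pdgfrb to Lix1l (0.94), Scube1 (0.92) and Kcnip3 (0.90). Pdgfb was closest to Tagln2 (0.98), Timp1 (0.97) and Icam1 (0.96). Tagln had Cpxm2 (0.97), Mfap5 (0.96) and Flnc (0.94), and Thy1 had C1qtnf6 (0.96), Sox8 (0.96) and Pdlim1 (0.96). Vim had Tnfsf13b (0.95), Ccdc80 (0.93) and Timp2 (0.93), and Des had Pltp (0.94), Nfasc (0.93) and Aebp1 (0.92). Acta2 had the loosest neighbours, Fbln2 (0.86), Col4a1 (0.85) and Tpm2 (0.84), beside Pdgfa with 2410018M08Rik (0.87), Bmp1 (0.87) and Gpsm1 (0.86). Of these 27 genes, 21 were also among the closest 3 without replicate 9.

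The drug target was set beside the markers, since a microRNA lowers transcripts that carry matches to its seed, bases 2 to 8 of the mature strand. The RefSeq sequence of mouse miR-17 (chr14:115043684-115043706, GRCm38.p6, plus strand) is shown first with the seed in capitals, because 7 RefSeq mouse miRNAs share that seed. The single match among the markers is shown second with the match in capitals, from the end of the Pdgfra 3′UTR (chr5:75197975-75198001, GRCm38, plus strand).
mmu-miR-17-5p: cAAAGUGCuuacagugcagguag
Pdgfra 3′UTR: gttaactgttGCACTTTtgaatgtcca

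The match lies at base 2888 of the longest annotated Pdgfra 3′UTR of 3118 bases and is not followed by an A. The other 8 markers had no match of GCACTTT in theirs, searched on the sense strand only. Among 13832 genes tested with an annotated 3′UTR, 13.98% had one. Pdgfra was the marker whose treatment difference was nearest 0 (log2 fold change -0.00, SE 0.17), and a match of letters does not show that the site is bound.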

How the data were processed

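Kidney mRNA of 31 mice was measured by stranded RNA-seq, and sample groups came from the sample labels. The authors deposited raw counts per gene: reads were trimmed with Trim Galore, mapped with STAR to GRCm38 and counted with HTSeq 0.6.1 from uniquely mapped reads, per the labels and the methods, and the authors applied no normalization to these counts. The annotation and strand setting of the counting are not given in the sources used here. Reads on no gene (8.39 to 10.1% of each file's total), on several genes (0.305 to 0.411%) or mapped to several places (17.8 to 21.2%) were left out.

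Genes passing filterByExpr (15185) were fitted in edgeR 4.0.16 (R 4.3.3) with TMM scaling, 1 coefficient per group over 31 mice and quasi-likelihood tests, with Benjamini-Hochberg adjustment and a threshold of 0.05. SE was approximated from the log2 fold change and its F statistic (size of the change over the root of F). Ratios and relations used log2(CPM + 1) and two-sided permutation tests, exact where a group had fewer than 10 mice and otherwise with 100000 resamples. Per-length levels used exon unions of GENCODE vM21 genes (GRCm38). Python 3.11.15 with scipy 1.17.1 served for these steps. On simulated counts for RGLS4326 against PBS (15083 genes), 91 of 98 genes changed by 1 on the log2 scale and 99 of 99 changed by 2 were called, with 6 of 14886 unchanged genes. Smaller changes were not simulated, so that recovery at the sizes of the marker differences in that comparison (-0.58 to -0.00) was not tested.

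The 9 markers and the gene lists were chosen with earlier results of these data known. Beyond the markers and Lcn2, genes named are the 2 with the smallest p per list in the PBS to wild type and the RGLS4326 to PBS comparison, the 3 most like each marker with a mean of at least 1 CPM, and those stated to be named after their values were seen. Alternatives covered scaling, filter, test, an added log2 size threshold of 0.5, groups in the model, index series, replicate block, pseudocounts and leaving out each mouse. List counts without RGLS4326 replicate 9 were added after seeing the data. Index series were inferred from deposited library names and may not be batches. Same-numbered mice of different groups are separate animals.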

Additional observations from a re-analysis of the deposited data

How the results depend on the processing

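Of 27 marker comparisons under other fits, 254 of 279 values kept their direction and their side of the threshold. The number of markers passing for RGLS4326 against PBS, 0 of 9, became 5 with total counts and no scaling factor, 1 with index series as a term and 1 with DESeq2, with 0 to 5 when single mice were left out. Calls over all genes, 2402 in the main fit, were 4683, 2238 and 3203 in those 3 fits, and 618 to 3999 with single mice left out. Without scaling, the median of all genes shifted by -0.11 for RGLS4326 against PBS, by 0.37 for PBS against wild type and by 0.26 for RGLS4326 against wild type, and relative to that shift the 5 genes (Pdgfa, Pdgfb, Tagln, Des and Thy1) lay at -0.25, -0.35, -0.40, -0.32 and -0.57. For RGLS4326 against wild type, 8 of 9 became 1 within index series 2, where 2 wild-type and 5 treated mice enter. Calls over all genes fell there as well, from 9861 in the main fit to a small fraction of that. The cause was not tested. Pdgfra in RGLS4326 against PBS turned positive with index series as a term (0.0065), with the replicate block (0.036) and within series 3 (0.23), and leaving out single mice gave -0.060 to 0.091. Pdgfrb turned positive within series 3 (0.046).

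Pdgfra against wild type passed with DESeq2 (adjusted p = 0.0379 for PBS and 0.0396 for RGLS4326), with index series as a term (0.047 and 0.0479), with total counts (0.0017 and 0.00531) and, for RGLS4326, with only the 2 groups compared (0.0247). Leaving out single mice changed the sign, or the side of an unadjusted p of 0.05, of 5 ratio comparisons, whose log2 differences ran from -0.31 to 0.063 (Pdgfra to Pdgfrb, RGLS4326 against wild type), from 0.14 to 0.26 (Acta2 to Tagln, RGLS4326 against PBS), and for Acta2 to Pdgfrb from 0.29 to 0.47, from -0.070 to 0.031 and from 0.26 to 0.44 (PBS against wild type, RGLS4326 against PBS, RGLS4326 against wild type). These were without wild-type replicate 2 for Pdgfra to Pdgfrb, without RGLS4326 replicate 11 for Acta2 to Tagln, and for Acta2 to Pdgfrb without PBS replicate 2, 3 or 10 or wild-type replicate 1, 3 or 4, without PBS replicate 3 or RGLS4326 replicate 12, and without wild-type replicate 3. No other ratio comparison changed so under another pseudocount, index series deviations or with a mouse left out.

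With the replicate block, 8, 0 and 8 of 9 markers passed in the 3 comparisons, as without it. Replicate numbers did not pair PBS- and RGLS4326-treated mice: the deviations of 12 pairs correlated at -0.08 on average (-0.47 to 0.51), and calls over all genes for RGLS4326 against PBS numbered 303 with the block and 2402 without it.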
